A study of Mus musculus with 6 samples.

Results

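The 9 genes described here encode transcription factors that steer myeloid progenitors toward granulocytes or monocytes, namely Cebpa, Cebpb, Cebpd, Cebpe, Gfi1, Spi1, Irf8, Klf4 and Runx1. They were taken by symbol from a table of 55487 mouse genes, and each of the 9 symbols matched 1 gene. The data were 6 libraries of total RNA from mouse bone marrow cells selected for Kit, the receptor for stem cell factor, which marks blood stem cells and progenitors. A lentivirus had delivered MLLT3 in its wild type form (WT, n = 3) or as a double mutant, K63E and K67E (DM, n = 3), so both groups carry a vector copy. After sorting, both groups grew in methylcellulose for 8 days. The medium held Flt3L at 10 ng/mL and further cytokines, among them EPO, SCF, GM-CSF, IL-3, IL-6 and IL-11, at 20 ng/mL each, together with 200 nM 4-hydroxytamoxifen, which was meant to delete the endogenous Mllt3 gene in WT and DM alike. MLLT3 is a chromatin reader found in complexes that promote transcription elongation, and the substitutions lie in its YEATS domain.

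Granulocytes and monocytes arise from a common progenitor whose formation needs C/EBPα, the product of Cebpa. PU.1, the product of Spi1, and RUNX1 act in both lineages. GFI1, a zinc finger repressor, and C/EBPε carry cells along the neutrophil path, while IRF8 and KLF4 favour monocytes, and GFI1 and IRF8 are known as opposing factors in this choice.

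All values are regularized log (rlog) values, which are on a log2 scale, are normalized for library size, and are pulled toward the mean of each gene, so that differences of weakly expressed genes are understated. A change is the DM mean minus the WT mean. Each gene was tested with limma, in a fit to the 18766 genes whose mean reached 3, and a gene was called when its Benjamini-Hochberg adjusted p over those genes was under 0.05. The labels do not say whether the 3 replicates of a group came from separate animals or cultures, so the p-values measure the spread between these libraries, which may be technical. The number of reads behind the values is unknown.

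Kit lay between 14.29 and 14.9 in all 6 libraries, and none of 5 progenitor markers (Kit, Cd34, Spn, Sox4 and Cd48) was called. Mast cell transcripts were abundant in both groups, with Cpa3 between 17.6 and 18.26, and 0 of 6 mast cell and basophil markers were called. Which cells gave the Kit, Cd34 and Cd48 transcripts cannot be read from bulk libraries. Eosinophil markers were lower in DM, with 3 of 4 called and a summed level from 15.03 to 15.14 in WT against 13.49 to 14.14 in DM. Of the erythroid markers 0 of 4 tested were called, with Hba-a1 at the bottom of the scale (-1.97). Megakaryocyte markers were called higher for 2 of 4 genes (summed level 14.17 to 14.38 in WT, 14.46 to 14.82 in DM), and lymphoid markers lay near the bottom of the scale, with 0 of 3 tested genes called. Of all tested genes 13.9% were called, 9.2% higher and 4.71% lower in DM. Mllt3 itself changed by -0.48 (limma adjusted p 0.0448) with groups that overlapped. The sources used here do not say whether transcripts of the vector were counted for this gene, so its values do not check the labels. In these bulk libraries, fewer cells of a type and less RNA per cell cannot be told apart.

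Of the 9 factors, 6 were called, 3 lower and 3 higher in DM. Cebpe and Gfi1 fell most, to 29.9% and 34.4% of WT on the linear scale. Klf4, Irf8 and Cebpb rose by 1.72, 1.47 and 1.38 times, and Cebpd fell to 75.5% of WT. Cebpa, Spi1 and Runx1 did not pass the test. Among all 18766 genes tested, 13.9% were called, 9.2% higher and 4.71% lower. Of the called genes 66.1% were higher in DM, and 51.3% were under quantile normalization. Of the factors only 3, Cebpe, Gfi1 and Klf4, were called when WT replicate 1 or DM replicate 2 was left out. None was called in a fit, chosen after the data were seen, that kept genes listed at 0 in all libraries (adjusted p 0.0743 for Cebpe and 0.0892 for Gfi1). Those 7553 genes have no variance to estimate. With no filter but without them, 5 factors were called (limma adjusted p 2.8e-05 for Cebpe and 6.92e-05 for Gfi1). The groups did not overlap for 6 factors, Cebpe, Gfi1, Cebpd, Klf4, Irf8 and Cebpb, where 35.8% of all tested genes had groups that did not overlap.

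**Figure D1:**
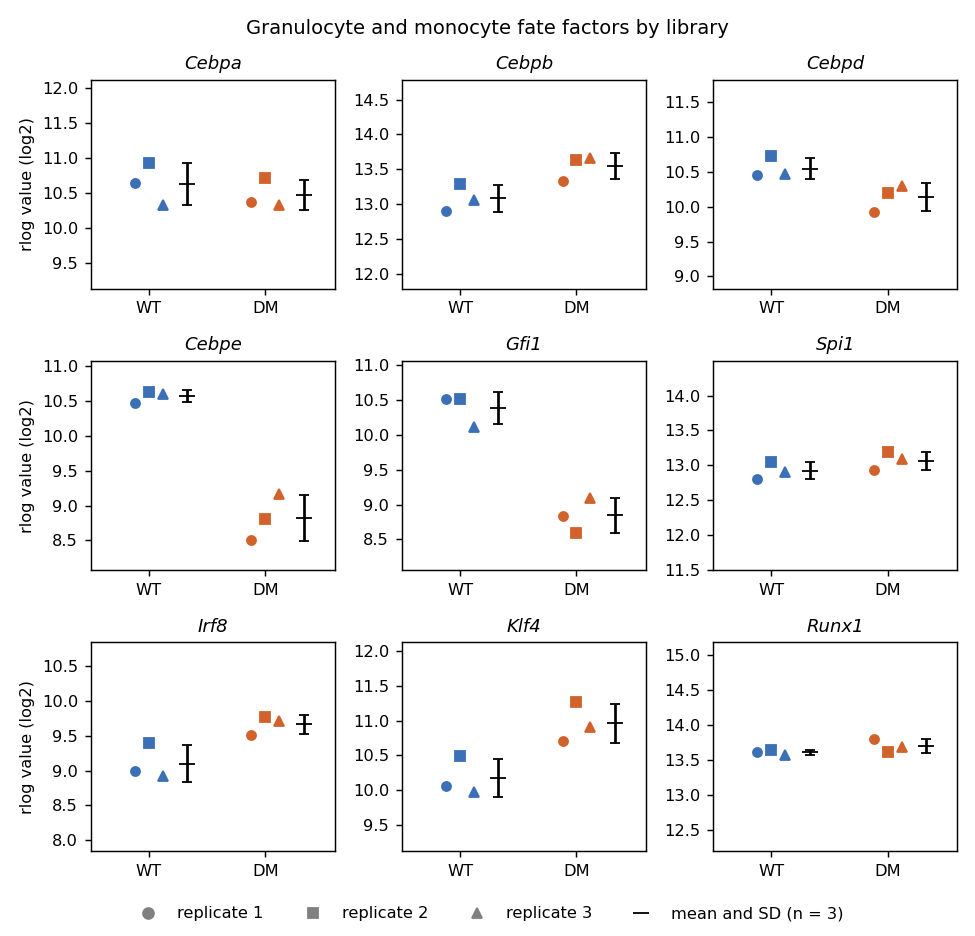
The rlog value (log2, vertical axis, 3 units in every panel) of each of the 9 factors in the 3 WT and 3 DM libraries, with marker shapes for the replicate number and bars for the mean and SD (n = 3). Cebpe and Gfi1 show gaps of 1.3 and 1.02 between the groups, while the WT and DM libraries of Cebpa, Spi1 and Runx1 overlap.

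Cebpe encodes C/EBPε, which is required for late neutrophil maturation and for the genes of specific granules. It lies on chromosome 14, 54710360 to 54712174, on the minus strand (ENSMUSG00000052435.7; these and all following gene positions are from GENCODE M21 on GRCm38, the assembly also called mm10). In the WT libraries, in the order of their replicate numbers as in all lists below, Cebpe was at 10.47, 10.64 and 10.6. In the DM libraries it was at 8.51, 8.8 and 9.17. The 3 WT libraries lay close together, and the DM libraries spread wider while all staying below them. The mean went from 10.57 ± 0.0863 (SD, n = 3) to 8.83 ± 0.33, a change of -1.74 (SE 0.139, limma adjusted p 0.000157), and leaving out any 1 library kept it between -1.91 and -1.58. By unadjusted p, Cebpe held place 28 of the 18766 tested genes.

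Gfi1 encodes the repressor GFI1, whose loss in mice blocks neutrophil formation. The gene is on chromosome 5, 107716657 to 107726036, minus strand (ENSMUSG00000029275.18). It was at 10.51, 10.52 and 10.12 in WT and at 8.83, 8.6 and 9.1 in DM. WT replicate 3 was the lowest of its group, and it still lay 1.02 above the highest DM library. From a mean of 10.39 ± 0.231 (SD, n = 3), Gfi1 fell by 1.54 to 8.84 ± 0.252 (SE 0.139, limma adjusted p 0.000306). An RNA annotated on the opposite strand at the start of Gfi1, A430072P03Rik (chromosome 5, 107725157 to 107728801), has exons that overlap those of Gfi1 and was also lower in DM (5.2, 5.2 and 5.24 against 4.85, 4.83 and 4.81, adjusted p 0.00308). Whether the counting used strand is not given in the sources used here, so reads of these overlapping genes may not be told apart.

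The promoters of these factors were searched for motifs of their own families. RefSeq windows on GRCm38.p6 were at hand for 6 of the 9 factors (9 windows over Cebpa, Cebpb, Gfi1, Irf8, Klf4 and Runx1), and the 250 bases before each start site were read on both strands for 6 motifs. These were TTGCNNAA for C/EBP factors, GAGGAAGT for PU.1, GAAANNGAA for IRF factors, TGTGGT for RUNX factors, AATCNNNGC for GFI1 and GGGTGTGG for KLF factors. Only 2 matches were found. A C/EBP motif lay at positions -143 to -136 relative to one of the Gfi1 start sites, and a GFI1 motif at -127 to -119 relative to an Irf8 start site, on the reverse strand. The stretches of 30 bases around both matches are shown because they hold a motif of one factor beside the gene of another, with the motif in capitals and each sequence in the direction of its gene:
Gfi1 (chr5:107725930-107725959, minus strand, within an exon of another Gfi1 transcript in GENCODE M21): cgaaggtaggtTTGCTGAActgctgtgcct
Irf8 (chr8:120736221-120736250, plus strand, outside the annotated Irf8 gene): ttggcaggctGCGCTGATTgggccgcgcca
Over 32851 windows of the same length across the genome, 9.56% held a match to the C/EBP motif and 8.87% to the GFI1 motif, so single matches of this kind were common. For PU.1, IRF, RUNX and KLF motifs these shares were 2.44%, 7.13%, 14% and 3.2%. A match describes letters in this window and is no evidence of binding. The full Irf8 window (chr8:120736108-120736357), again with the matching letters in capitals, read:
Irf8 window: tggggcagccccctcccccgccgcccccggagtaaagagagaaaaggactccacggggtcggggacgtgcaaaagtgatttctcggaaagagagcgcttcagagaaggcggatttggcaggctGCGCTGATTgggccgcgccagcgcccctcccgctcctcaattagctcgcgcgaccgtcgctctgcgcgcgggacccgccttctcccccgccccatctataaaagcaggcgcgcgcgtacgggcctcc

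Cebpa encodes C/EBPα, which is needed to form the granulocyte and monocyte progenitor. It lies on chromosome 7, 35119293 to 35121928, plus strand (ENSMUSG00000034957.10). Cebpa was at 10.64, 10.92 and 10.32 in the WT libraries, and at 10.37, 10.71 and 10.32 in the DM libraries. The groups overlapped, with the second replicate highest in each. The change was -0.16 (SE 0.148, 95% interval -0.5 to 0.17, limma adjusted p 0.486). This interval does not reach the change seen for Cebpe. Gm45091, annotated antisense to the start of Cebpa, was below the filter, with means of 2.75 in WT and 2.71 in DM.

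Cebpb and Cebpd encode C/EBPβ and C/EBPδ, which are induced by cytokines and inflammatory signals and act in macrophages as well as in granulocytes. These paralogs moved in opposite directions. Cebpb (chromosome 2, 167688915 to 167690418, plus strand, ENSMUSG00000056501.3) was at 12.9, 13.29 and 13.06 in the WT libraries, and at 13.33, 13.63 and 13.67 in the DM libraries. Its lowest DM library exceeded its highest WT library by only 0.04. The mean rose from 13.08 ± 0.195 (SD, n = 3) to 13.54 ± 0.184, a change of 0.46 (SE 0.119, limma adjusted p 0.0309). The call of Cebpb was lost when WT replicate 1 (0.37, adjusted p 0.121), WT replicate 3 (0.45, 0.0627), DM replicate 2 (0.41, 0.113) or DM replicate 3 (0.4, 0.119) was left out, and under quantile normalization (0.31, 0.0912). Across 13 alternative settings its adjusted p ran from 0.00197 to 0.121. Tmem189, whose annotated exons overlap those of Cebpb from the opposite strand, was also higher in DM, by 0.5 (adjusted p 0.0102). The limit on strand given for Gfi1 holds here too, so reads of Cebpb and Tmem189 may not be told apart.

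Cebpd (chromosome 16, 15887286 to 15891031, plus strand, ENSMUSG00000071637.5) was at 10.45, 10.72 and 10.46 in WT and at 9.92, 10.2 and 10.3 in DM. Every DM library was below every WT library, the nearest by 0.15. The mean fell by 0.41, from 10.55 ± 0.152 (SD, n = 3) to 10.14 ± 0.196 (SE 0.109, limma adjusted p 0.0355). The call of Cebpd was lost when WT replicate 1 (-0.45, adjusted p 0.0644), WT replicate 2 (-0.32, 0.0714), DM replicate 1 (-0.3, 0.101) or DM replicate 2 (-0.43, 0.0803) was left out, and with no filter on the mean (-0.41, 0.0651). Its adjusted p ran from 0.0108 to 0.101 across the same settings. Spidr, which shares exonic sequence with Cebpd on the opposite strand, had a change of 0.00 (adjusted p 0.99).

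Klf4 and Irf8 represent the monocyte side. KLF4 is a zinc finger factor needed for inflammatory monocytes. Klf4 (chromosome 4, 55527143 to 55532466, minus strand, ENSMUSG00000003032.8) was at 10.06, 10.49 and 9.98 in WT and at 10.71, 11.26 and 10.92 in DM. Each DM library lay above each WT library, by at least 0.21. Its mean rose from 10.18 ± 0.274 (SD, n = 3) to 10.96 ± 0.281, a change of 0.78 (SE 0.156, limma adjusted p 0.0114). Its adjusted p ran from 0.000371 to 0.0436 across the 13 settings.

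IRF8 directs monocyte and dendritic cell formation and restrains neutrophil output. Irf8 (chromosome 8, 120736358 to 120756694, plus strand, ENSMUSG00000041515.10), next to the promoter window printed above, was at 8.99, 9.4 and 8.92 in the WT libraries, and at 9.51, 9.76 and 9.71 in the DM libraries. WT replicate 2 came within 0.11 of the lowest DM library. The mean went from 9.1 ± 0.26 (SD, n = 3) to 9.66 ± 0.133, a change of 0.56 (SE 0.123, limma adjusted p 0.016). The call of Irf8 was lost when WT replicate 1 (0.5, adjusted p 0.0627), DM replicate 2 (0.51, 0.0632) or DM replicate 3 (0.54, 0.0608) was left out, and its adjusted p ran from 0.00201 to 0.0632 across the 13 settings. The gene model Gm20388, which spans Irf8 on the same strand, was listed at 0 in all 6 libraries.

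The factors shared by both lineages did not pass the test. PU.1 is an ETS factor required for all myeloid cells. Spi1 (chromosome 2, 91082390 to 91115756, plus strand, ENSMUSG00000002111.8) was at 12.81, 13.05 and 12.91 in WT and at 12.93, 13.18 and 13.08 in DM, with groups that overlapped. Its change was 0.15 (SE 0.0919, 95% interval -0.06 to 0.35, limma adjusted p 0.317). RUNX1 binds DNA with its partner CBFβ and helps set up the myeloid programme. Runx1 (chromosome 16, 92601466 to 92826149, minus strand, ENSMUSG00000022952.17) was at 13.62, 13.64 and 13.57 in WT and at 13.81, 13.61 and 13.68 in DM. The values of Runx1 in WT fell within the smallest spread of any of the 9 factors (SD 0.0373, n = 3), and the change was 0.09 (SE 0.0789, 95% interval -0.09 to 0.27, adjusted p 0.476), or -0.1 under quantile normalization. Gm26626, antisense to Runx1, had a change of 0.04 (adjusted p 0.649). The intervals of both genes leave out a change of the size found for Klf4.

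Levels can be compared between genes after correction for length, by taking the rlog value minus the log2 of the annotated exon length in kilobases. On this scale Cebpb ranked first in both groups, with a mean level of 12.5 ± 0.195 (SD) among the WT libraries and 12.96 ± 0.184 among the DM libraries (n = 3 each), above 98.6% and 99% of tested protein-coding genes. Spi1 was second, at 11.49 ± 0.121 in WT and 11.64 ± 0.127 in DM. In WT the next levels were Cebpe at 10.26, Runx1 at 10.02, Cebpa at 9.23, Gfi1 at 8.71, Cebpd at 8.64, Klf4 at 8.57 and Irf8 at 6.28. The ranges of Gfi1 and Cebpd overlapped there, as did those of Cebpd and Klf4, while the other neighbours in the order did not overlap. In DM the order after Spi1 was Runx1 at 10.11, Klf4 at 9.35, Cebpa at 9.07, Cebpe at 8.52, Cebpd at 8.24, Gfi1 at 7.17 and Irf8 at 6.84. Klf4 and Cebpa, Cebpe and Cebpd, and Gfi1 and Irf8 overlapped in DM. Cebpe thus held place 3 of 9 in WT and place 6 in DM, and Klf4 place 8 and place 4. The percentile among protein-coding genes went from 92.7 to 73 for Cebpe and from 77.4 to 51.4 for Gfi1. The exon length counts every annotated transcript, so that the level of a gene with many long isoforms, such as Runx1 with 12025 exonic bases or Irf8 with 7055, is a low estimate.

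The C/EBP proteins pair with each other through their leucine zippers and bind closely similar sites, so the makeup of the family was compared. When the length-corrected values of the 4 C/EBP genes were taken to the linear scale and summed, Cebpe made up 15.9%, 14% and 16.1% of the sum in WT and 3.72%, 3.69% and 4.67% in DM. Cebpb made up 72.1% ± 1.37 (SD, n = 3) among the WT libraries and 86.8% ± 0.237 among the DM libraries. For Cebpa the shares were 7.57% ± 1.17 and 5.91% ± 0.889, and for Cebpd 4.99% ± 0.181 and 3.3% ± 0.097. The log2 of the summed level was 12.97 ± 0.173 in WT and 13.16 ± 0.183 in DM, a difference of 0.19 that is of the size of the spread. These shares rest on shrunken values and on annotated lengths, and describe RNA only. The share of Cebpb also carries the limit on reads of Tmem189 given above.

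**Figure D2:**
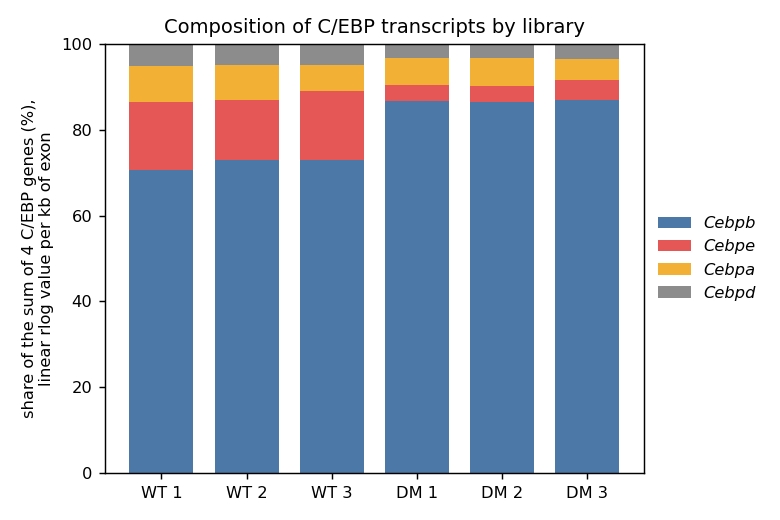
Share (%) of each of the 4 C/EBP genes in their summed linear rlog value per kilobase of exon, as stacked bars from 0 for each library. The Cebpe segment shrinks from between 14% and 16.1% in the WT libraries to between 3.69% and 4.67% in the DM libraries, and Cebpb takes up most of the rest.

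Pairs of factors were compared within libraries, by subtracting the rlog value of one from that of the other, for 6 pairs. The difference Gfi1 minus Irf8 was 1.53, 1.12 and 1.2 in WT and -0.68, -1.16 and -0.61 in DM. It shifted by -2.1, and each DM library lay below each WT library. Cebpe minus Cebpa was -0.17, -0.29 and 0.28 in WT and -1.85, -1.91 and -1.15 in DM, a shift of -1.58 with groups that did not overlap. Cebpa minus Cebpb shifted by -0.62 and Irf8 minus Klf4 by -0.22, both without overlap. Cebpa minus Spi1 (-0.31) and Spi1 minus Runx1 (0.06) had overlapping groups. The exact two-sided permutation p was 0.1 for the first 4 of these pairs, the smallest that 3 against 3 libraries allow, and 0.3 and 0.8 for the last pairs. Adjusted over the 6 pairs, the exact permutation values were 0.15, 0.36 and 0.8, and none passed 0.05.

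Libraries of 1 group also differed from each other. WT replicate 2 held the highest WT value for all 9 factors, whereas it was the highest WT library for 44.1% of all tested genes. In DM, replicates 2 and 3 were each highest for 4 factors, where they were highest for 38.9% and 29.3% of all tested genes. DM replicate 1 was lowest for 6 factors, and the share over all genes was not computed for the lowest library. DM replicate 3 had the highest Cebpe and Gfi1 values of its group. By the mean of the centred values it was also highest in DM for the early neutrophil and late neutrophil gene lists described next, at -0.93 and -0.14 relative to the 6-library mean, against -1.21 and -1 in DM replicate 1 and -1.63 and -0.36 in DM replicate 2. By the summed level, DM replicate 1 was highest for the early list, at 14.29 against 14.28 in DM replicate 3. In WT the orders differed. Cebpe and Gfi1 were highest in WT replicate 2, but by the mean of the centred values the early list was highest in WT replicate 1 (1.45) and the late list in WT replicate 3 (0.78). The part of these lists in the Cebpe and Gfi1 values was not tested.

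Genes that lie downstream of these factors, or mark the cells they make, were read from lists. Over all tested genes 13.9% were called, 9.2% higher and 4.71% lower in DM. The early neutrophil list holds 7 genes, among them Mpo, Elane and Prtn3, whose promoters are classical targets of C/EBPα, RUNX1 and MYB. Of these, 6 were called lower and none higher, and the list median was -2.7 against 0.01 over all tested genes. Mpo (-4.23, limma adjusted p 0.000444), Elane (-3.96, 0.000118), Prtn3 (-3.37, 0.000118) and Ms4a3 (-2.7, 0.000102) changed most, all by more than any of the 9 factors. Csf3r, the receptor for granulocyte colony-stimulating factor and a C/EBPα target, did not pass (-0.41, adjusted p 0.131), which was looked up after its value was seen. The summed level of the list lay between 15.61 and 16.47 in WT and between 13.74 and 14.29 in DM.

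The late neutrophil list holds 12 genes, among them genes for specific granule proteins such as Camp, Ngp and Ltf, and 9 were called lower and none higher (median -1.13). Across the 13 settings 8 to 12 genes of this list were called, and in 5 of these settings 1 gene was called higher. Itgb2l (-1.69, limma adjusted p 0.00281), Camp (-1.66, 0.00514), Cd177 (-1.62, 0.00494) and Ngp (-1.62, 0.00787) changed by amounts close to that of Cebpe. The 3 members that did not pass, named after their values were seen, were Lcn2 (-0.45, adjusted p 0.15), Mmp9 (-0.21, 0.498) and Mmp8 (0.5, 0.0521). The summed level ran from 18.31 to 18.98 in WT and from 17.17 to 18.08 in DM. How far the falls of Cebpe and Gfi1 reflect the number of neutrophil cells, whose genes moved the same way, or of eosinophils, whose summed markers are given above, was not tested.

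The monocyte and macrophage list had 15 tested genes of 16, with Ly86 under the filter. Of these, 10 were called higher and 2 lower, and the median was 0.46. Ctss (0.96, limma adjusted p 0.0115), a lysosomal protease, and Cd68 (0.94, 0.00777), a lysosomal membrane protein of macrophages, rose. Ly6c2 (-1.13, 0.00361) and Ccr2 (-0.78, 0.00975), the surface protein and chemokine receptor that mark inflammatory monocytes, fell, so the list did not move as 1 block although Klf4 and Irf8 both rose. Receptors for colony-stimulating factors were named after their values were seen. Csf1r rose by 0.73 (limma adjusted p 0.00415) and Csf2ra by 0.5 (0.0409, with groups that overlapped). Csf3r, of the early neutrophil list, did not pass (-0.41, 0.131), and neither did Spi1. The summed level of the monocyte and macrophage list was 16.74 to 17.18 in WT and 17.31 to 17.59 in DM. Its part in the rises of Klf4, Irf8 and Cebpb was not tested. Only 7 genes of this list were called when WT replicate 1, DM replicate 2 or DM replicate 3 was left out. Under quantile normalization 8 genes of the list were called, 75% of them higher.

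Genes of dendritic cells, whose formation also needs IRF8, were called for 2 of 6 tested members, Itgax higher (0.98, limma adjusted p 0.0108) and Flt3 lower (-0.3, 0.0494). The share called over all tested genes was 13.9%. Itgax encodes an integrin also found on macrophages, and Flt3 was near the filter, with means of 4.54 and 4.24. The call of Flt3 was lost when WT replicate 1 (-0.23, adjusted p 0.163), WT replicate 3 (-0.25, 0.101) or any 1 DM library (adjusted p 0.104, 0.122 and 0.133) was left out. It was also lost with no filter, with no trend and under both scalings (adjusted p 0.0674 to 0.0944). Siglech, which defines plasmacytoid dendritic cells, was below the filter.

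**Figure D3:**
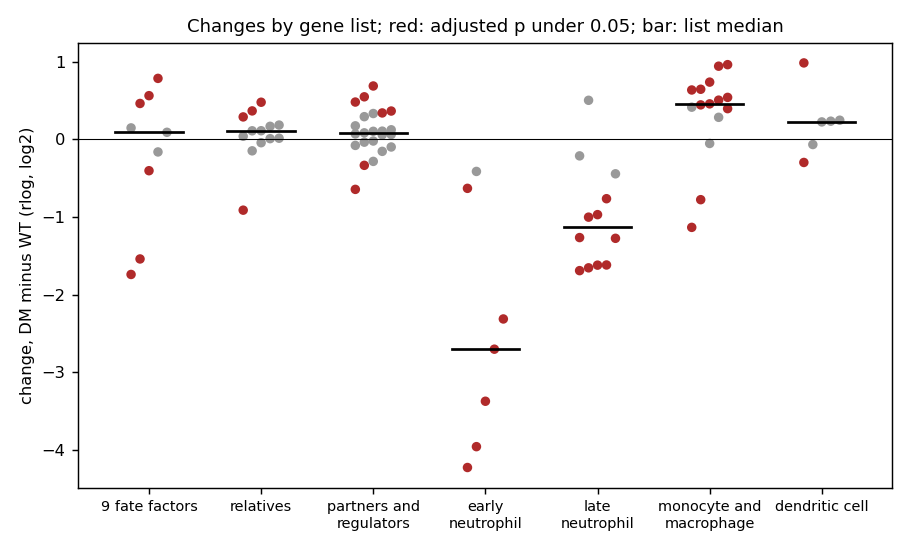
Change (DM minus WT, rlog, log2) of each tested gene in the 9 factors and 6 gene lists, with red points for an adjusted p under 0.05 and bars for the list medians. The neutrophil lists sit below 0 (medians -2.7 and -1.13) and the monocyte and macrophage list mostly above (median 0.46), while the 9 factors fall on both sides.

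Among 13 genes listed as relatives by family or symbol, 4 were called, 3 higher and 1 lower, with a median of 0.11. Over all tested genes the share called was 13.9%. Klf5, a zinc finger factor of the KLF family, fell by 0.91, from 9.56, 10.05 and 10.29 in WT to 8.86, 9.14 and 9.16 in DM (limma adjusted p 0.00768), the opposite direction to Klf4. Irf5 (0.48, 0.012), an IRF factor of macrophage activation, and Klf6 (0.36, 0.0114) rose. Irf5 lost its call when WT replicate 1 was left out (0.42, adjusted p 0.0515), and Klf6 when DM replicate 2 was (0.34, 0.0598) and under quantile normalization (0.17, 0.144). Ddit3, which encodes a C/EBP-related protein of the stress response, was called (0.29, 0.046) but lost the call in 8 of the 13 settings (adjusted p up to 0.154). Gfi1b, the paralog of Gfi1 that acts in erythroid cells and megakaryocytes, had a change of 0.04 (adjusted p 0.86). Its values were 8.47, 8.31 and 8.65 in WT and 8.76, 8.49 and 8.3 in DM, with groups that overlapped. Runx2 and Runx3 had changes of 0.11 (0.528) and 0.01 (0.95), and Cebpg, of the C/EBP family, 0.01 (0.956). Cebpz, which shares the symbol but encodes a CCAAT-binding protein of another family, had a change of -0.05 (0.712). Gfi1b and these 4 genes were looked up after their values were seen.

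**Figure D4:**
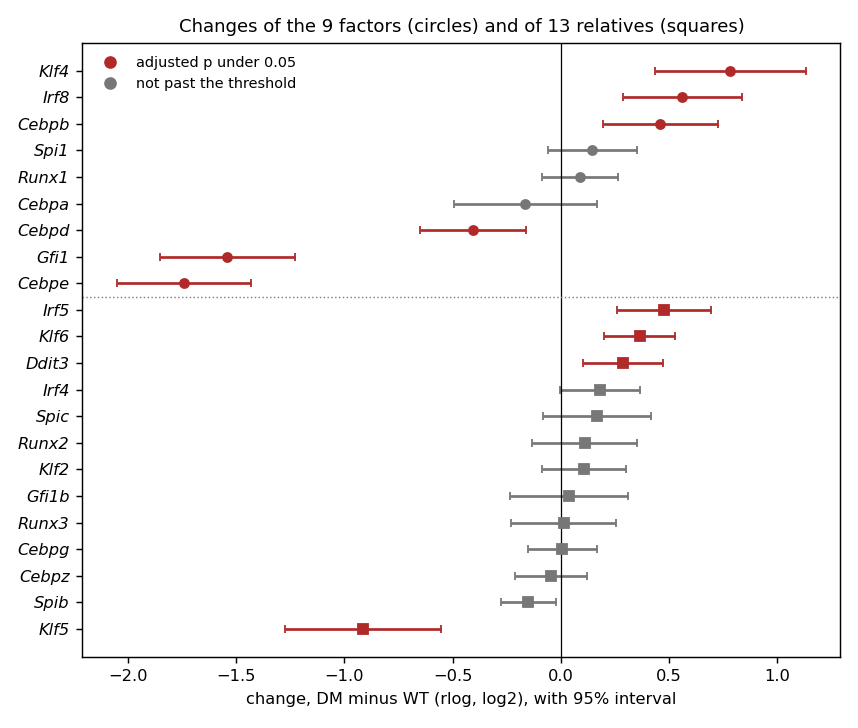
Change (DM minus WT, rlog, log2, horizontal axis) with its 95% limma interval for the 9 factors (circles) and 13 relatives (squares), with red for an adjusted p under 0.05. Cebpe and Gfi1 stand at the low end at -1.74 and -1.54, Klf5 at -0.91 is the lowest of the relatives, and Klf4 at 0.78 is the highest of all.

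The last list holds 23 genes that partner, oppose or regulate these factors. Of them 7 were called, 5 higher and 2 lower, with a median of 0.08, where 13.9% of all tested genes were called. Egr2 (0.69, limma adjusted p 0.00377), which together with NAB2 represses neutrophil genes, rose, and so did Nab2 (0.34, adjusted p 0.0345), looked up after its value was seen. The call of Nab2 was not followed across the other settings. Zeb2 (0.55, 0.00638), a zinc finger repressor, was higher as well. Myb (-0.65, 0.0127), a progenitor factor that activates Mpo and Elane, was lower, and lost the call when DM replicate 2 (-0.57, 0.0529) or DM replicate 3 (-0.6, 0.0526) was left out. Egr1 did not pass (0.17, limma adjusted p 0.419, with groups that overlapped), and was looked up after its value was seen. Other regulators did not pass either. These included Cbfb, the partner of Runx1 (0.1, adjusted p 0.396), Trib1 (0.12, 0.432) and Trib2 (-0.1, 0.565), which send C/EBPα for degradation, and Kdm1a (0.1, 0.366) and Rcor1 (0.06, 0.586), corepressors of GFI1, all of them looked up after the values were seen. With DM replicate 2 left out 3 genes of this list were called, and with WT replicate 1 or DM replicate 3 left out 4 were.

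For each factor, the genes whose values centred on their own mean differed least from it over the 6 libraries were found among 11977 genes with a mean of at least 6, by the root mean square difference on the rlog scale. For Cebpe these were F730016J06Rik, a long noncoding RNA (0.174), Gatm, an enzyme of creatine synthesis (0.18), and Cstdc5, of a family of near-identical stefin genes (0.182). For Gfi1 they were BC035044 (0.129), Epx, the eosinophil peroxidase (0.133), and Mgl2, a lectin of macrophages and dendritic cells (0.14). For Klf4 they were the chemokine Ccl6 (0.0289), Eps8 (0.046) and the receptor Tlr7 (0.0497). The nearest genes to Irf8 were Samd8 (0.0302), Gja5 (0.0302) and Atp2b1 (0.0333), and those to Cebpb were Clec4a3 (0.0374), Timp2 (0.0446) and Inf2 (0.0464). Cebpd was nearest to Sgms2 (0.0256), Rnd1 (0.0257) and Impa2 (0.0409). The factors that did not pass the test lay nearest to Homer1 (0.012) for Spi1, to Lrrc8c (0.0145) for Runx1 and to Zfp111 (0.0758) for Cebpa. Such likeness over 6 libraries in 2 groups is a description of these libraries.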

How the data were processed

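The authors deposited 1 table of log2 values. Its name calls them rlog (regularized log), and its values do not contradict that. The submitters' processing notes name cutadapt 2.6, STAR 2.7.3, DESeq2 1.30.0 and mm10, with no role given. The counting tool, use of strand and annotation are not given in the sources used here. Its 142699 lines were merged into 55487 genes, since entries of a gene were identical, and 98.1% of gene identifiers matched GENCODE M21.

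DM was compared with WT by limma 3.58.1 in R 4.3.3 (a linear model per gene, moderated with a trend of the variance on the mean, no covariates) across all genes with a mean of at least 3. Depth is unknown, so no counting error was computed. The members and lists were chosen with earlier results of these data known. Named were the 9 members, up to 4 called genes per list with the largest change, genes overlapping a member, Mllt3, and the 3 nearest genes per member (fewer are printed for 3 members). Relatives that were not called, marker genes, and genes marked so in the text were picked with their values in view. Pairs of members were compared by exact permutation with SciPy 1.17.1, and figures were drawn with matplotlib 3.10.9. Some items named by this rule are not reported here. A planned comparison of C/EBP protein sequences was not made here.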

Additional observations from a re-analysis of the deposited data

How the results depend on the processing

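The comparison was repeated without a filter (47934 genes), with a filter at a mean of 5, without the variance trend, with quantile normalization, with each library centred on its median, with protein-coding genes only, with a replicate block, and each library left out in turn. Cebpe, Gfi1 and Klf4 kept their calls in all 13. Cebpb and Cebpd lost theirs in 5 each and Irf8 in 3, and Runx1 turned to -0.0996 after quantile normalization. Spi1 minus Runx1 ran from -0.0473 (DM replicate 2 left out) to 0.178 (DM replicate 1 left out), and was -0.0049 with WT replicate 1 left out. The other 5 pair differences kept their direction.

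With libraries left out in turn, the number of called genes ran from 1119 (without DM replicate 2) to 3475 (without WT replicate 2), and was 1185 without WT replicate 1 and 1537 without DM replicate 3. Called members ran from 3 to 5, relatives from 2 to 4, partners and regulators from 3 to 8, monocyte and macrophage genes from 7 to 13, and dendritic cell genes from 1 to 3. After quantile normalization 2 relatives were called, and 51.3% of all called genes were higher in DM, against 66.1% in the comparison as reported. Dendritic cell genes numbered 1 without the filter, with a mean of at least 5, without the trend, and after either scaling.

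In a fit chosen after the data were seen, which also kept the 7553 genes at 0 in all libraries, 138 genes were called. No member, relative, partner, late neutrophil, monocyte or dendritic cell gene was (0 in each), and 1 early neutrophil gene was. There Cebpe had an adjusted p of 0.0743 and Gfi1 of 0.0892, against 2.8e-05 and 6.92e-05 with no filter but without these genes. Genes with no variance have no spread to estimate, and the cause of the lower count was not tested.

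The labels give no pairing, so the replicate numbers were not taken as pairs. The deviations of same-numbered libraries from their group means correlated at 0.491, 0.116 and 0.0412 across tested genes for replicates 1 to 3. Between differently numbered WT and DM libraries these correlations ran from -0.336 to 0.124, so a factor shared by the libraries numbered 1 is possible and was not tested. With the replicate block 3742 genes and 6 members were called, and so were 12 late neutrophil genes. Of the 22 other list genes named by the rule, 17 kept their calls in every setting they were tested in but the fit with genes at 0. Zeb2, 1 of them, was not tested among protein-coding genes only. Unknown depth leaves the precision of low values, such as Flt3, unmeasured.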
